A study of Mus musculus with 12 samples.

Results

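The 46 genes described here encode the machinery of mitosis and cell division: the kinases and cyclins of mitotic entry, the spindle checkpoint, the anaphase-promoting machinery, kinetochore and spindle proteins, the chromosomal passenger complex and the proteins of cytokinesis. They were listed by symbol, and the list was drawn up with earlier results of these data known. Each gene was represented by the probe set that names it alone and had the highest mean over the 12 arrays. All 46 were measured, out of 18193 genes with a probe set of their own, and 45 of them had a mean above the median probe set, the exception being Kif15. The arrays hold RNA of B220+ B cells, selected on magnetic beads from spleens of C57BL/6 mice that carry Tg(IghelMD4)4Ccg, a transgene for a B cell receptor that binds hen egg lysozyme (HEL). Every group, controls included, was cultured with anti-CD40, IL21 and HEL, signals that stand in for T follicular helper cells and antigen. The 6 groups of 2 arrays are cells labelled for depletion of Jmjd2a, cells labelled for depletion of Jmjd2c and control cells at day 3, and the same 3 kinds of cells at day 1. Jmjd2a and Jmjd2c are older names of Kdm4a and Kdm4c, demethylases of lysine residues on histone H3. The labels speak of silencing RNA in one place and of virus carrying short hairpin RNA in another, and they call the arrays of a group biological replicates without naming the animals or cultures. Each p-value therefore measures the spread between these arrays only, pooled over the 6 groups.

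In a dividing cell, Cdk1 bound to cyclins drives entry into mitosis, the spindle captures chromosomes at their kinetochores, and the checkpoint holds back the anaphase-promoting complex until every kinetochore is attached. Transcripts of these genes rise late in the cell cycle, and their promoters are known for a pair of short elements: the CHR, bound by the MuvB core of the DREAM complex, and the CCAAT box, bound by NF-Y. B cells given CD40 and cytokine help enter rapid rounds of division before some of them become plasma cells, so this set of transcripts is commonly read as a measure of how many cells are dividing. In RNA from bulk cultures, fewer dividing cells and less RNA per dividing cell cannot be told apart.

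Array medians lay between 5.2 and 5.3 on the log2 scale. Replicate 2 of the day 3 control stood apart: its 18S probe sets averaged 10.7, where those of every other array lay at 11.7 to 12.7. Its interquartile range was 3.08, and the others had 3.38 to 3.63. The day 3 control arrays share a single description and are told apart by the replicate number in the title. No pair of arrays held identical values. The targeted genes were not lower past the test in the arrays labelled for them: Kdm4a differed by -0.12 at day 3 and by 0.11 at day 1 on the Jmjd2a arrays (log2, adjusted p = 0.36 and 0.62), and Kdm4c by 0.03 and 0.19 on the Jmjd2c arrays (adjusted p = 0.91 and 0.41). The groups are therefore named by their labels throughout, and each direction is that of arrays labelled Jmjd2a or Jmjd2c against arrays labelled control. Of the B cell markers, 7 were measured, and their mean lay between 10.3 and 11.3 on every array. With each label, 2 of the 7 were lower at day 3 and 6 were higher at day 1. The mean of 12 macrophage markers lay between 5.99 and 6.18 on the Jmjd2a and Jmjd2c arrays of day 3, against 7.09 to 7.13 on the control arrays, and between 7.76 and 8.90 on the Jmjd2a and Jmjd2c arrays of day 1, against 5.39 to 5.41 on the control arrays. That of 6 NK cell markers ran the same way, at 5.87 to 6.07 against 7.26 to 7.31 on day 3 and at 6.45 to 7.02 against 5.10 to 5.21 on day 1. The mean of 6 neutrophil markers parted the day 1 arrays of each label: replicate 2 had 7.27 with Jmjd2a and 7.90 with Jmjd2c, and replicate 1 had 5.36 and 5.39, against 4.64 and 4.65 in control. At day 3 it lay at 5.04 to 5.19 on the Jmjd2a and Jmjd2c arrays, against 5.69 and 5.88 in control. Both of those replicate 2 arrays thus stood apart as well, and counts without them are given beside the results. The mean of 5 erythroid markers was 5.63 to 6.12 against 4.39 and 4.43 in control at day 1, and 4.42 to 4.55 against 4.52 and 4.57 at day 3. That of 8 T cell markers was 6.17 to 6.37 against 5.73 and 5.78 at day 1, and 5.84 to 6.03 against 6.25 and 6.33 at day 3. That of 7 plasma cell markers was 9.62 to 9.81 against 9.39 and 9.41 at day 1, and 9.48 to 9.53 against 9.76 and 9.81 at day 3. These 7 did not move together. With Jmjd2a and Jmjd2c, 3 and 4 were higher and 1 lower at day 1, and 4 and 3 lower and 1 higher at day 3. Sdc1 ran against the mean, at 10.01 to 10.31 against 10.54 and 10.63 at day 1, and 10.44 to 10.52 against 9.43 and 9.32 at day 3.

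RefSeq's promoter table (GRCm38.p6, 250 bases before to 50 after the annotated start) held 40 of the 46 genes in 43 windows. Kif20a, Aurkb, Cdc25c, Ccna2, Incenp and Tpx2 were not in it. The CHR was searched as TTTGAA or else TTCGAA, and the CCAAT box by the letters of its name. An E2F site was searched in any of the forms TTGGCGC or else TTCGCGC or else TTCCCGC or else TTGCCGC. Each search covered both strands, and overlapping matches of different elements were counted for each. A CHR was found for 32 of the 40 genes (80%), against 21.7% of all 27025 genes in the table. A CCAAT box was found for 29 (72.5%), against 41.1% of all genes, and an E2F site for 6 (15%), against 10.9%. Between 60 bases before and 40 after the start, a range set after the positions were seen, a CHR lay in 72.5% of the mitosis genes and 6.53% of all genes. The windows printed here run from position -120 to 25, counted from the annotated start. The first 5 belong to genes with large day 3 differences or, for Kif11, to the spindle motor Eg5, and the last 2, of Plk4 and Pttg1, hold no CHR and no CCAAT box in these bases. Capitals mark the CHR and CCAAT letters on either strand.
Ccnb2 (chr9:70421530-70421674, minus strand): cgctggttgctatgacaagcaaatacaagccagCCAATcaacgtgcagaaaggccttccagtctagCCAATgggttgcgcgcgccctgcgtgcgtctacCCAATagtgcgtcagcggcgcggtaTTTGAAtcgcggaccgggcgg
Cdc20 (chr4:118437319-118437463, minus strand): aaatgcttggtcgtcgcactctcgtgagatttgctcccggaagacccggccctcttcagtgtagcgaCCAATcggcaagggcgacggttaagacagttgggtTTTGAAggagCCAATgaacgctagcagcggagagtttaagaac
Ube2c (chr2:164769809-164769953, plus strand): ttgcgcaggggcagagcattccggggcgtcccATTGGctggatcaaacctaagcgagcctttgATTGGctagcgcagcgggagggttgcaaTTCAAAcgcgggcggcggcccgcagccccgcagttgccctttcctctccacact
Cenpa (chr5:30666766-30666910, plus strand): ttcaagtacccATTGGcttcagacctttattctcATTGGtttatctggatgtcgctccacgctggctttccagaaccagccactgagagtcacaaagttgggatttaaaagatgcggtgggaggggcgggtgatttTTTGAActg
Kif11 (chr19:37376262-37376406, plus strand): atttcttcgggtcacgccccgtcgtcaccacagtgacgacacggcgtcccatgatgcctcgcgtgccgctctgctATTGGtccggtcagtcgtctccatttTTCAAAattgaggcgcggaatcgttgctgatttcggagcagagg
Plk4 (chr3:40799831-40799975, plus strand): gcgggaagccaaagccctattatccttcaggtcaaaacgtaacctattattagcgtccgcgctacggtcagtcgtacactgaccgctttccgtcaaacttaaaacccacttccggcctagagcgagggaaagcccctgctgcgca
Pttg1 (chr11:43425957-43426101, minus strand): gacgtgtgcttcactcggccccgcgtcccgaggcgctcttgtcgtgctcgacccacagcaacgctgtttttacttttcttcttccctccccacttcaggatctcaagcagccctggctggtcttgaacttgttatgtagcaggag
The CHR of Ccnb2 and Cenpa lies just after the annotated start, and that of Cdc20, Ube2c and Kif11 just before it. The 8 genes without a CHR in their window were Plk4, Nek2, Mad2l1, Pttg1, Cenpe, Nuf2, Birc5 and Nusap1. All of these except Plk4 and Pttg1 were lower past the test in every comparison with control given below. Cdc25b and Kif15, which departed from the common pattern, hold a CHR, at positions 8 and -19. A link between the CHR and the differences was not tested. A match is a string of letters, and binding was not measured here.

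**Figure D1:**
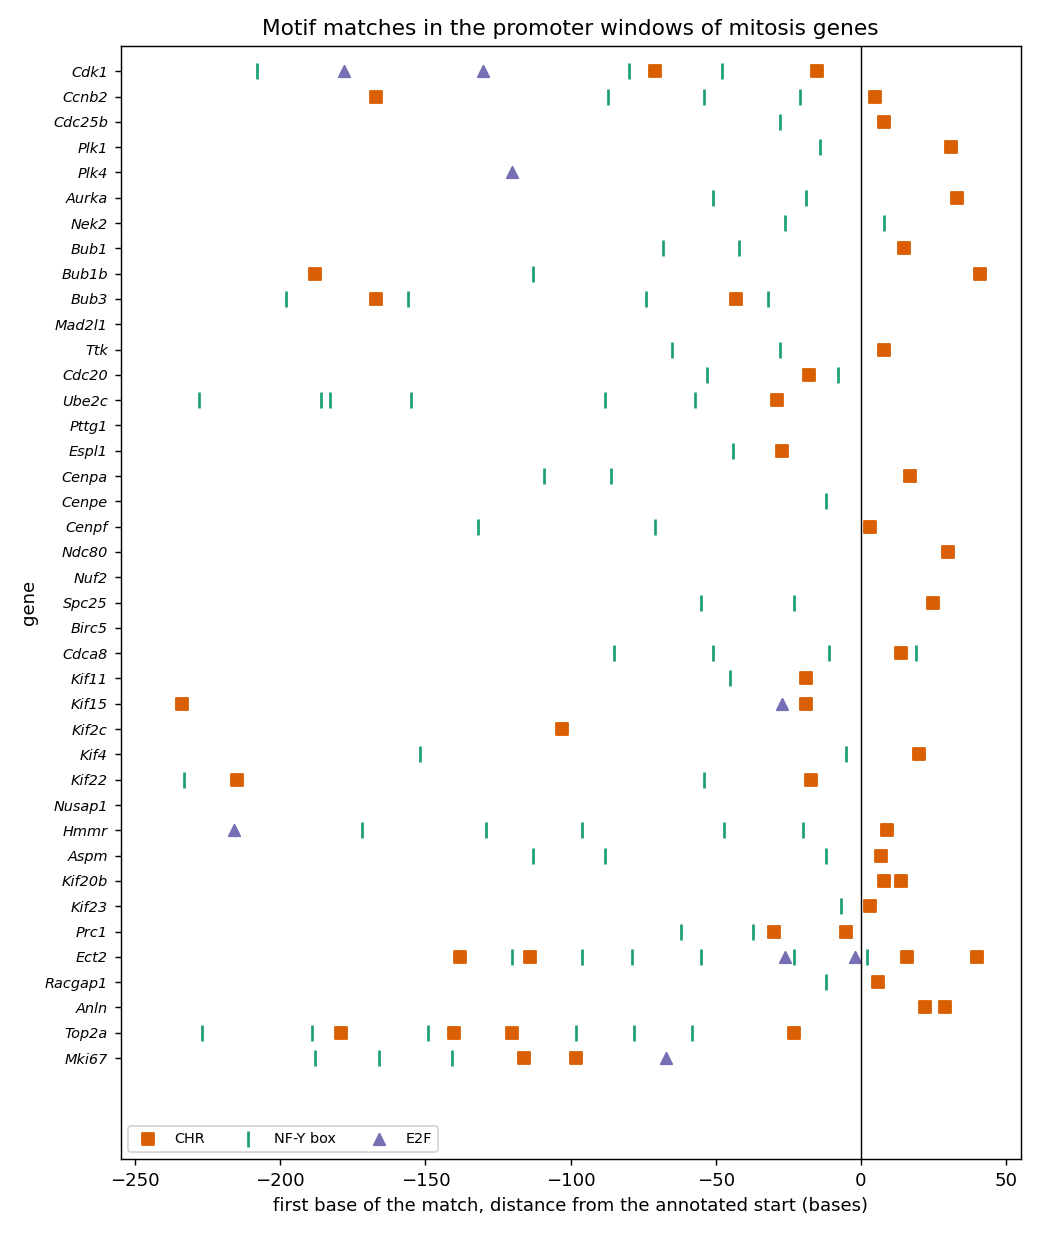
Motif matches in the promoter windows of the 40 mitosis genes found in the promoter table. The x axis is the distance of the first base of a match from the annotated start in bases, each row is a gene, squares are CHR matches, bars are CCAAT (NF-Y) boxes and triangles are E2F sites. For the genes with several windows the matches are overlaid, and most squares lie between 60 bases before and 40 after the start.

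Over the whole set, levels were lowest in the Jmjd2a and Jmjd2c groups at day 1 and highest in the day 3 control. The mean of the 46 genes was 8.97 and 8.92 on the Jmjd2a arrays of day 3 and 9.002 and 8.91 on the Jmjd2c arrays, against 9.84 and 9.76 on the control arrays. At day 1 it was 8.31 and 8.30 with Jmjd2a and 8.28 and 8.27 with Jmjd2c, against 8.66 and 8.67 in control. The Jmjd2a and Jmjd2c arrays at day 3 thus lay above the control of day 1 and below the control of day 3. The full order, from the Jmjd2a and Jmjd2c arrays of day 1 through the control of day 1 and the Jmjd2a and Jmjd2c arrays of day 3 to the control of day 3, held with no overlap in 38 of the 46 genes, against 0.768% of all 45037 probe sets. This order was noticed in the data and is given as a description. The 8 genes outside it were Cdc25b, Plk4, Bub3, Ttk, Pttg1, Kif15, Kif20b and Anln. The day 3 control had the highest group mean for 45 genes, and the day 1 control for Pttg1.

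**Figure D2:**
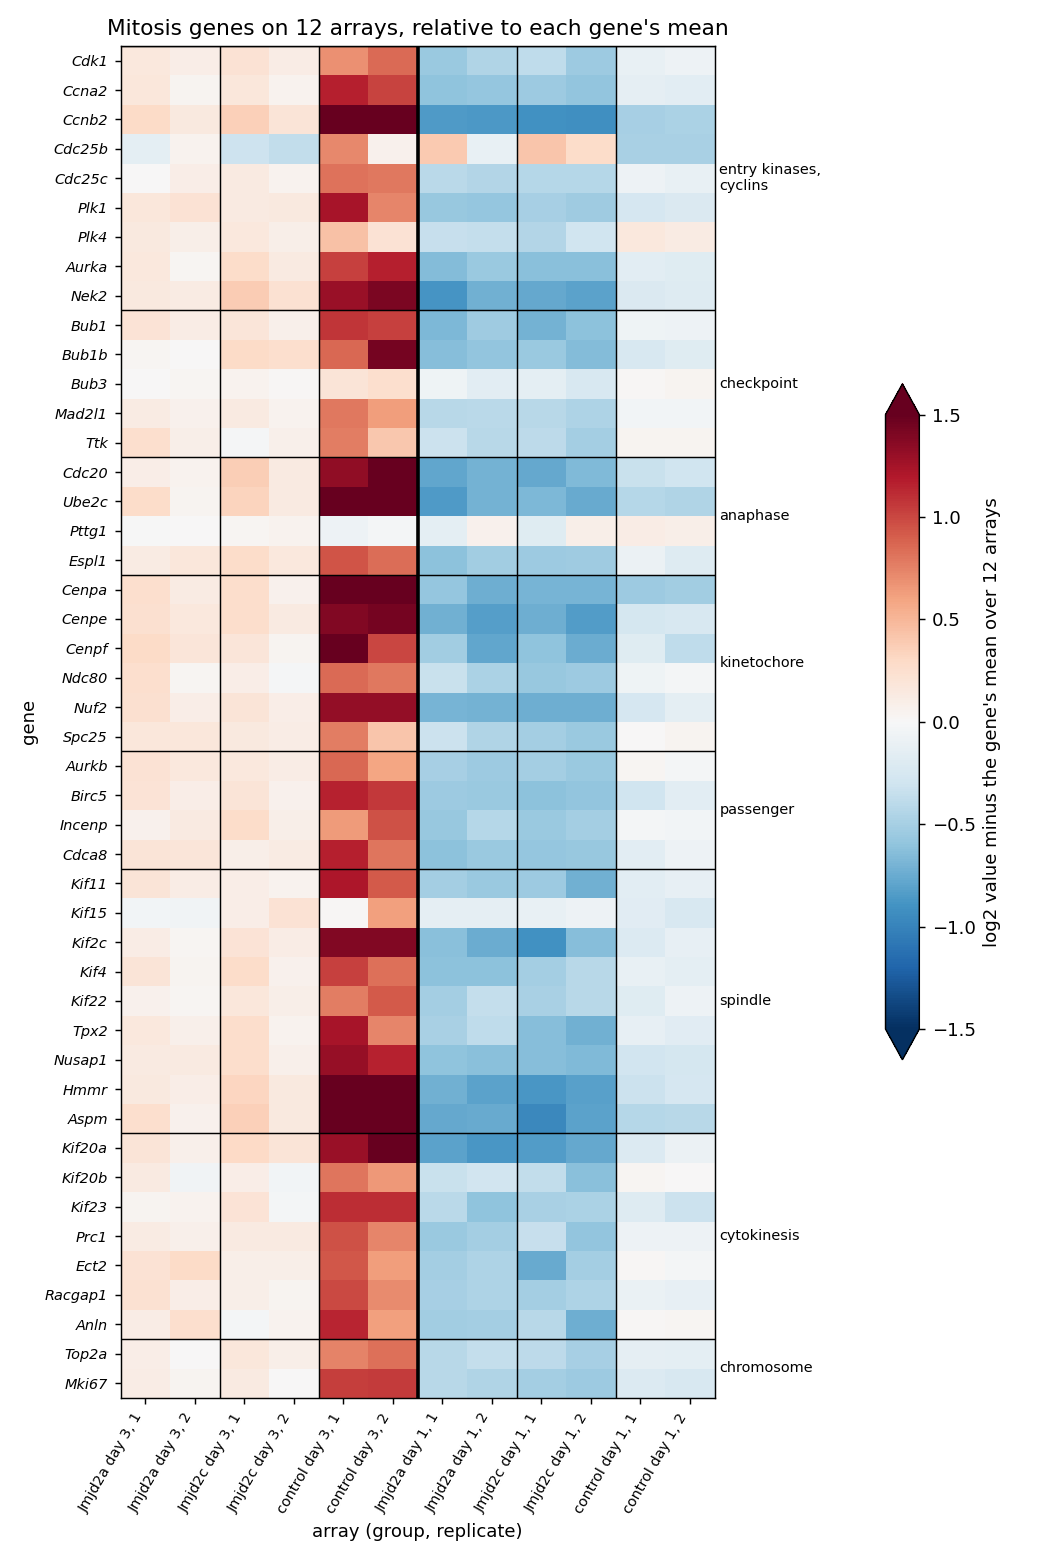
Log2 value of each mitosis gene on each of the 12 arrays, minus the gene's mean over the arrays. Rows are genes grouped by role, columns are arrays, and colours run from -1.5 (blue) to 1.5 (red), with values beyond these drawn at the end colours. Both day 3 control arrays are red for nearly all genes, the Jmjd2a and Jmjd2c arrays of day 3 are pale, and the Jmjd2a and Jmjd2c arrays of day 1 are blue.

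At day 3, nearly the whole set was lower in Jmjd2a and Jmjd2c arrays. With Jmjd2a, 42 of 46 genes fell and 0 rose, with a median log2 difference of -0.80, while the median of all probe sets was -0.04. Of all probe sets, 20.8% were past the test (limma, adjusted p under 0.05), with 7.11% lower and 13.7% higher. Among the brightest probe sets of genes above the median level, 11.5% were lower and 25.5% higher. With Jmjd2c, 43 fell and 0 rose, with a median of -0.86 against -0.01 over all probe sets, of which 14.3% were past the test, 5.04% lower and 9.28% higher. Among the brightest probe sets of genes above the median level, 10.5% were lower and 19.4% higher. The same 42 genes fell with both labels. The largest decrease was that of Ccnb2 with either label, and 16 genes with Jmjd2a and 14 with Jmjd2c were past the test and at least 2-fold lower, against 0.699% and 0.719% of all probe sets. Leaving out the control array that stood apart gave medians over the 46 genes of -0.92 and -0.95. Both comparisons share the day 3 control arrays.

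At day 1, the differences had the same direction for most genes and a smaller median. With Jmjd2a, 29 genes fell and 0 rose, with a median of -0.40 against -0.04 over all probe sets, of which 7.47% were past the test, 3.25% lower and 4.23% higher. With Jmjd2c, 35 fell and 1, Cdc25b, rose, with a median of -0.41 against -0.03 over all probe sets, of which 11% were past the test, 5.69% lower and 5.32% higher. Among the brightest probe sets of genes above the median level, 7.4% were lower and 8.59% higher with Jmjd2a. With Jmjd2c, 11.7% of these probe sets were lower and 11.1% higher. There were 27 genes of the set that fell with both labels. With either label 0 were at least 2-fold lower, as were 0.0133% of all probe sets with Jmjd2a and 0.04% with Jmjd2c. The arrays of the compared groups did not overlap in 44 genes that were lower with Jmjd2a and 43 that were lower with Jmjd2c, against 32.9% and 32.4% of all probe sets. With any array left out, the day 1 median over the 46 genes stayed between -0.40 and -0.38 with Jmjd2a. With Jmjd2c it stayed between -0.44 and -0.40. The number past the test moved in both directions, as did that of all probe sets. Fewer of the 46 genes passed without replicate 1 or 2 of the day 1 control. The same held without replicate 1 of Jmjd2a in its comparison and without replicate 2 of Jmjd2c in its own. Spread was uneven: the median standard deviation of all probe sets was 0.148 in the day 3 control and 0.062 to 0.082 elsewhere. With array weights, 40 genes fell and 1 rose with Jmjd2a at day 1, and 41 fell and 1 rose with Jmjd2c. At day 3, 40 and 41 fell under these weights. Of all 45037 probe sets, 6378 and 8386 passed at day 1 under these weights, and 5711 and 4114 at day 3. Without both replicate 2 arrays that stood apart in neutrophil markers, a setting chosen after seeing the data, 22 passed with Jmjd2a (median -0.38) and 25 with Jmjd2c (median -0.40). With every array left out in turn, 5 genes kept their call with Jmjd2a (Bub1, Ccna2, Kif20a, Nek2 and Plk4) and 11 with Jmjd2c (the same 5 and Aurkb, Cenpe, Hmmr, Kif2c, Mad2l1 and Nuf2), against 37 and 39 at day 3. Macrophage markers moved against the mitosis genes here and with them at day 3: 11 and 12 of 12 were higher with Jmjd2a and Jmjd2c at day 1, and 8 and 7 were lower at day 3. Their part in the result was not tested.

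**Figure D3:**
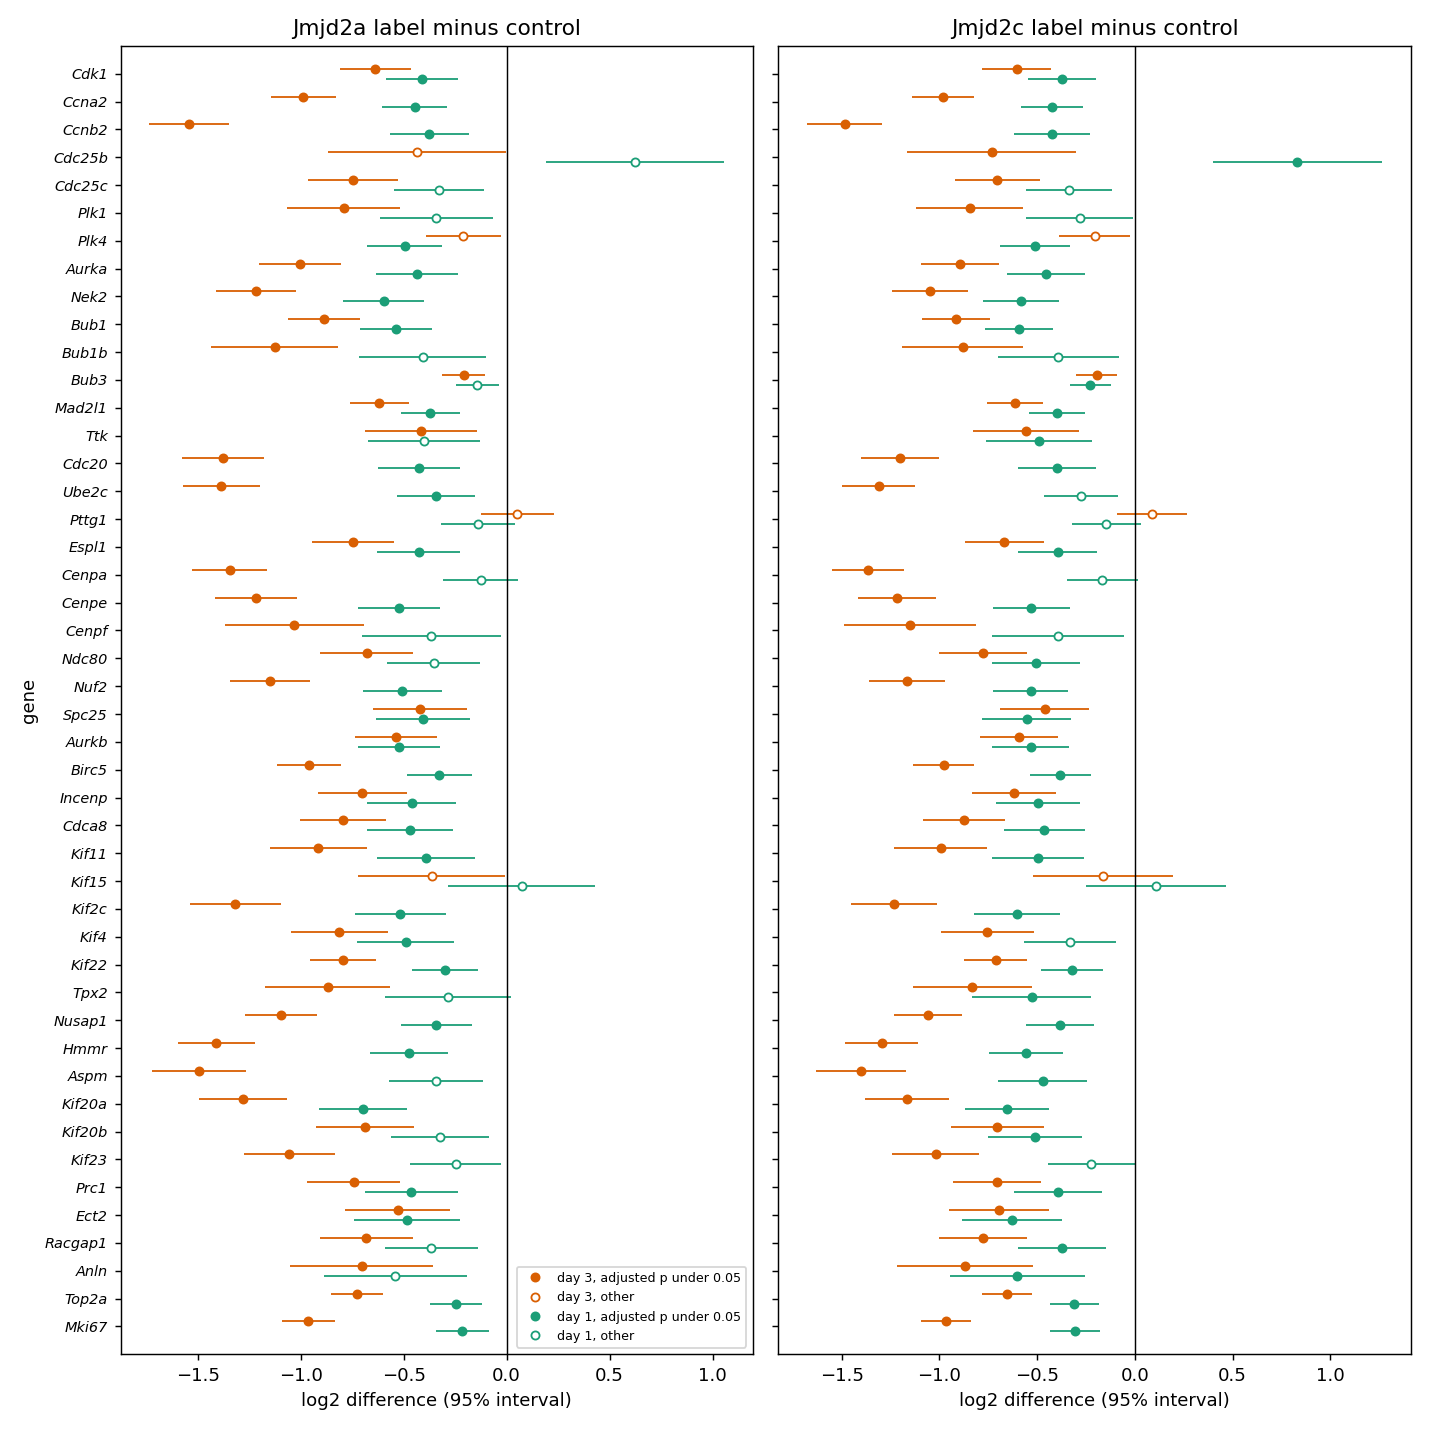
Log2 difference between the arrays labelled Jmjd2a or Jmjd2c and the control arrays for each mitosis gene, with 95% intervals of the moderated model. The left panel is Jmjd2a minus control and the right Jmjd2c minus control, with day 3 in orange above day 1 in green, and filled points have an adjusted p under 0.05. Nearly all points lie left of 0, those of day 3 farther than those of day 1, and Cdc25b, Plk4, Pttg1 and Kif15 stand out.

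Between day 1 and day 3 the set rose in every condition, and most in control cells. In control, 44 of 46 genes were higher at day 3 and 0 lower, with a median of 1.11 against 0.04 over all probe sets, of which 23.8% were past the test, 8.46% higher and 15.4% lower. Pttg1 and Plk4 did not pass. With Jmjd2a, 41 were higher and 0 lower, with a median of 0.69 against 0.03 over all probe sets, of which 5.61% were past the test, 2.26% higher and 3.35% lower. With Jmjd2c, 43 were higher and 0 lower, with a median of 0.68 against 0.05, and 8.63% of all probe sets were past the test, 3.27% higher and 5.36% lower. Among the brightest probe sets of genes above the median level, 14.5% were higher in control, 5.39% with Jmjd2a and 7.28% with Jmjd2c. Genes of the set past the test and at least 2-fold higher at day 3 numbered 1 with Jmjd2a (Ccnb2), 5 with Jmjd2c and 26 in control. The shares of all probe sets were 0.0644%, 0.0977% and 1.41%. Without both replicate 2 arrays of day 1 that stood apart, 33 genes were higher at day 3 with Jmjd2a and 39 with Jmjd2c. The macrophage markers were higher at day 3 in control, 10 of 12, and lower at day 3 with Jmjd2a and with Jmjd2c, 8 of 12 each, while the mitosis genes were higher at day 3 in all of them.

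Whether the difference from control changed between the days was tested as the day 3 difference minus the day 1 difference. It passed for 22 genes with Jmjd2a and 23 with Jmjd2c, all negative, with medians of -0.49 and -0.42, against -0.01 and 0.01 over all probe sets. Of all probe sets, 18.3% and 17.5% were past this test, and 6.36% and 6.84% were negative. The 21 genes past it with both labels include Ccna2, Ccnb2, Nek2, Cdc20, Ube2c, Cenpa, Hmmr, Aspm, Top2a and Mki67. Without replicate 2 of Jmjd2c at day 3 the second count was 14, and without both replicate 2 arrays of day 1 the counts were 21 and 19, with 1 positive in each. Between the labels, 0 of 46 genes differed on either day in limma, and 0 had an unadjusted p under 0.05. Of all probe sets, 0% were past the test, and 2571 at day 3 and 1081 at day 1 had an unadjusted p under 0.05. The differences between labels ran from -0.24 to 0.30 at day 3 and from -0.21 to 0.24 at day 1, and the widest 95% interval reached 0.43 to either side.

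The genes of mitotic entry comprise Cdk1, its cyclins, the Cdc25 phosphatases that activate it, and the Polo, Aurora and Nek kinases. Of 9, 7 fell with Jmjd2a and 8 with Jmjd2c at day 3, and 6 fell with each label at day 1. Ccnb2, cyclin B2, read 9.44 and 9.31 with Jmjd2a and 9.52 and 9.35 with Jmjd2c, against 10.82 and 11.01 in control at day 3. At day 1, Ccnb2 read 8.30 and 8.29 with Jmjd2a and 8.25 and 8.24 with Jmjd2c, against 8.66 and 8.69 in control. Its arrays did not overlap between either label and control on either day, and its level with Jmjd2a at day 3 was 34.4% of control, a difference of -1.54 ± 0.09 (adjusted p = 1.3e-06). Ccnb2 was also 2.24 ± 0.09 higher at day 3 in control, the largest such change in the set, and 1.08 ± 0.09 higher with Jmjd2a. Values after ± are standard errors of the moderated model. Ccna2, cyclin A2, read 10.30 and 10.16 with Jmjd2a and 10.29 and 10.18 with Jmjd2c, against 11.29 and 11.14 in control at day 3. At day 1 Ccna2 read 9.52 and 9.54 with Jmjd2a and 9.58 and 9.54 with Jmjd2c, against 9.996 and 9.97 in control. The control arrays were the highest on both days, with differences of -0.99 ± 0.07 and -0.98 ± 0.07 at day 3 for Jmjd2a and Jmjd2c, and -0.45 ± 0.07 and -0.42 ± 0.07 at day 1. Cdk1 itself changed less, with 10.24 and 10.18 with Jmjd2a and 10.29 and 10.19 with Jmjd2c, against 10.76 and 10.93 in control at day 3. On day 1 Cdk1 read 9.52 and 9.62 with Jmjd2a and 9.70 and 9.52 with Jmjd2c, against 9.96 and 10.003 in control. Its differences were -0.64 ± 0.08 and -0.61 ± 0.08 at day 3 and -0.41 ± 0.08 and -0.37 ± 0.08 at day 1, and the change between days missed the test (adjusted p = 0.22 and 0.21). Nek2, a kinase that separates centrosomes, read 8.70 and 8.67 with Jmjd2a and 8.92 and 8.78 with Jmjd2c, against 9.84 and 9.96 in control at day 3. Day 1 values of Nek2 were 7.66 and 7.83 with Jmjd2a and 7.78 and 7.75 with Jmjd2c, against 8.33 and 8.36 in control. It fell by the most of this list at day 1, with differences of -0.60 ± 0.09 and -0.58 ± 0.09, and by 1.22 and 1.05 at day 3.

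The remaining entry genes include the set's clearest exceptions. Cdc25b, a phosphatase that starts Cdk1 activation at the centrosome, read 6.92 and 7.12 with Jmjd2a and 6.75 and 6.69 with Jmjd2c, against 7.78 and 7.13 in control at day 3. Cdc25b at day 1 read 7.45 and 6.96 with Jmjd2a and 7.48 and 7.35 with Jmjd2c, against 6.58 and 6.59 in control. At day 1 the Jmjd2a and Jmjd2c arrays were above control and at day 3 below it, while both control arrays of day 3 lay far apart. Its day 1 difference was 0.62 ± 0.20 with Jmjd2a (adjusted p = 0.087) and 0.83 ± 0.20 with Jmjd2c (adjusted p = 0.019), the only member past the test as higher. At day 3 the values were -0.44 ± 0.20 (adjusted p = 0.14) and -0.73 ± 0.20 (adjusted p = 0.027). The day 3 call of Cdc25b was lost without replicate 1 of the day 3 control (-0.41) and without either Jmjd2c array of day 3 (-0.76 and -0.70), and its day 1 call without any of the 4 arrays compared (0.76 to 0.90). Plk4, the kinase that starts centriole duplication, read 9.91 and 9.85 with Jmjd2a and 9.92 and 9.85 with Jmjd2c, against 10.20 and 9.98 in control at day 3. Plk4 on day 1 read 9.41 and 9.40 with Jmjd2a and 9.32 and 9.46 with Jmjd2c, against 9.92 and 9.88 in control. It fell only at day 1 among the comparisons with control, with -0.49 ± 0.08 and -0.51 ± 0.08, while the day 3 values of -0.21 ± 0.08 and -0.21 ± 0.08 missed the test (adjusted p = 0.096 and 0.14). The difference between days was not past the test for Plk4 either (0.29 ± 0.12 and 0.30 ± 0.12). Aurka, Plk1 and Cdc25c fell at day 3 with both labels, by 1.00, 0.79 and 0.75 with Jmjd2a and by 0.89, 0.85 and 0.70 with Jmjd2c. Aurka fell at day 1 too, while Plk1 and Cdc25c did not pass then.

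**Figure D4:**
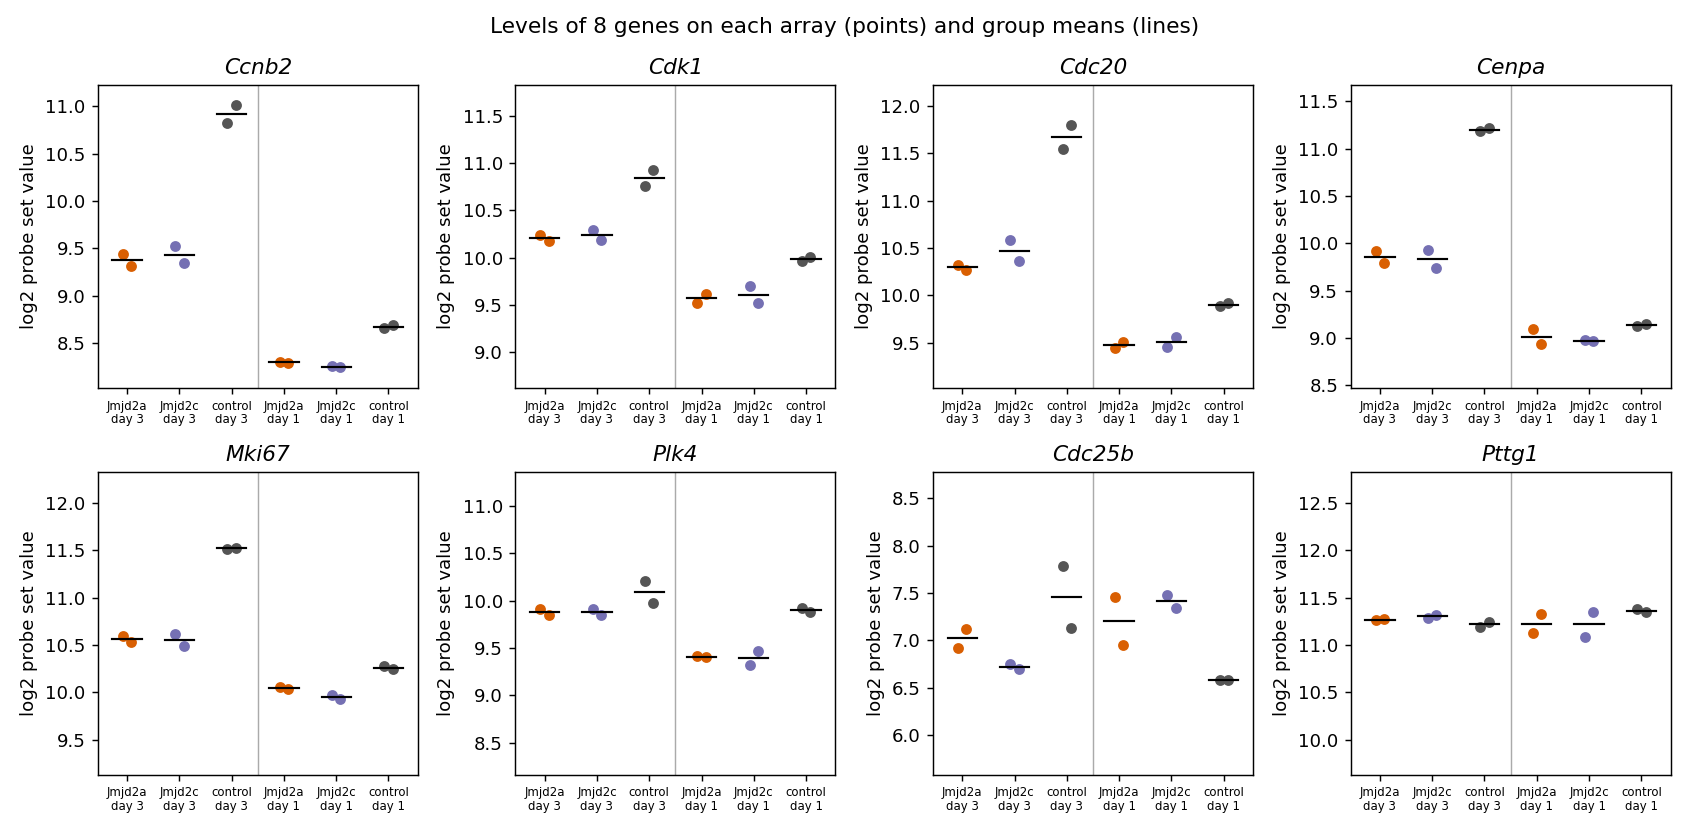
Log2 probe set values of 8 mitosis genes on each array. Points are arrays, lines are group means, and every panel spans the same number of log2 units around its own level, with day 3 left of the grey line and day 1 right of it. Ccnb2, Cdk1, Cdc20, Cenpa and Mki67 show the highest values in the day 3 control, Plk4 is lowest in the Jmjd2a and Jmjd2c arrays of day 1, Cdc25b is lowest in the day 1 control, and Pttg1 stays between 11.08 and 11.38.

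The spindle checkpoint genes encode the kinases Bub1 and Ttk and the proteins Bub1b, Bub3 and Mad2l1, which restrain Cdc20 while kinetochores are unattached. All 5 fell at day 3 with both labels, and 2 with Jmjd2a and 4 with Jmjd2c fell at day 1. Bub1 read 9.33 and 9.24 with Jmjd2a and 9.31 and 9.20 with Jmjd2c, against 10.19 and 10.15 in control at day 3. At day 1 Bub1 read 8.44 and 8.59 with Jmjd2a and 8.42 and 8.50 with Jmjd2c, against 9.06 and 9.05 in control. The groups did not overlap, and the differences were -0.89 ± 0.08 and -0.92 ± 0.08 at day 3 and -0.54 ± 0.08 and -0.59 ± 0.08 at day 1. Bub1b, BubR1, read 8.32 and 8.30 with Jmjd2a and 8.57 and 8.54 with Jmjd2c, against 9.15 and 9.72 in control at day 3. Day 1 arrays of Bub1b read 7.64 and 7.70 with Jmjd2a and 7.73 and 7.64 with Jmjd2c, against 8.05 and 8.10 in control. The day 3 differences were -1.13 ± 0.14 and -0.88 ± 0.14, and the day 1 values of -0.41 ± 0.14 and -0.39 ± 0.14 missed the test (adjusted p = 0.12 and 0.11). Mad2l1, Mad2, read 10.40 and 10.34 with Jmjd2a and 10.42 and 10.33 with Jmjd2c, against 11.07 and 10.91 in control at day 3. On day 1, Mad2l1 read 9.87 and 9.88 with Jmjd2a and 9.86 and 9.83 with Jmjd2c, against 10.24 and 10.24 in control. It fell by 0.62 and 0.61 at day 3 and by 0.37 and 0.40 at day 1. Bub3 had the highest mean level of the set, 11.87. Among the genes past the test at day 3 it had the smallest decreases, -0.21 ± 0.05 and -0.20 ± 0.05. Ttk fell by 0.42 and 0.56. The Bub3 calls were lost without replicate 1 of Jmjd2a at day 3 (-0.19), and without replicate 2 of the day 3 control (-0.17) or either Jmjd2c array of day 3 (-0.21 and -0.18). That of Ttk with Jmjd2a was lost without replicate 1 of the day 3 control (-0.23), either Jmjd2a array of day 3 (-0.50 and -0.33), either control array of day 1 or either Jmjd2c array of day 3 (-0.42 each), and that with Jmjd2c without either Jmjd2c array of day 3 (-0.51 and -0.61).

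The anaphase list holds Cdc20, the activator of the anaphase-promoting complex, Ube2c, the enzyme that supplies it with ubiquitin, Espl1, the separase that cuts cohesin, and Pttg1, the securin that inhibits separase. The first 3 fell at day 3 with both labels, and Pttg1 did not. Cdc20 read 10.32 and 10.27 with Jmjd2a and 10.58 and 10.36 with Jmjd2c, against 11.55 and 11.80 in control at day 3. At day 1 Cdc20 read 9.45 and 9.51 with Jmjd2a and 9.45 and 9.55 with Jmjd2c, against 9.88 and 9.92 in control. Its day 3 level was 38.5% of control with Jmjd2a and 43.5% with Jmjd2c, against 74.5% and 75.9% at day 1. Ube2c read 10.997 and 10.77 with Jmjd2a and 11.06 and 10.85 with Jmjd2c, against 12.28 and 12.25 in control at day 3. Ube2c at day 1 read 9.87 and 10.01 with Jmjd2a and 10.05 and 9.97 with Jmjd2c, against 10.30 and 10.27 in control. It fell by 1.38 and 1.31 at day 3 and by 0.34 at day 1 with Jmjd2a, while the Jmjd2c value of -0.28 ± 0.09 missed the test (adjusted p = 0.063). Espl1 read 7.98 and 8.02 with Jmjd2a and 8.13 and 8.02 with Jmjd2c, against 8.80 and 8.69 in control at day 3. Day 1 values of Espl1 were 7.24 and 7.33 with Jmjd2a and 7.32 and 7.32 with Jmjd2c, against 7.76 and 7.66 in control. Its differences were -0.75 ± 0.09 and -0.67 ± 0.09 at day 3 and -0.43 ± 0.09 and -0.39 ± 0.09 at day 1. For Pttg1 the groups lay close together. Pttg1 read 11.26 and 11.28 with Jmjd2a and 11.29 and 11.32 with Jmjd2c, against 11.19 and 11.24 in control at day 3. At day 1 Pttg1 read 11.12 and 11.32 with Jmjd2a and 11.08 and 11.35 with Jmjd2c, against 11.38 and 11.35 in control. Its differences were 0.05 ± 0.08 and 0.09 ± 0.08 at day 3 and -0.14 ± 0.08 and -0.15 ± 0.08 at day 1, with adjusted p of 0.69, 0.57, 0.42 and 0.35. It also did not pass between days in control (-0.15 ± 0.08, adjusted p = 0.23).

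The kinetochore list holds Cenpa, the histone H3 variant of centromeres, the motor Cenpe, Cenpf, and the Ndc80 complex subunits Ndc80, Nuf2 and Spc25. All 6 fell at day 3 with both labels, with medians of -1.09 and -1.16, and 3 with Jmjd2a and 4 with Jmjd2c fell at day 1. Cenpa read 9.92 and 9.79 with Jmjd2a and 9.93 and 9.74 with Jmjd2c, against 11.18 and 11.21 in control at day 3. At day 1 Cenpa read 9.09 and 8.93 with Jmjd2a and 8.98 and 8.97 with Jmjd2c, against 9.13 and 9.15 in control. The day 3 arrays were far apart and those of day 1 close: the differences were -1.34 ± 0.08 and -1.37 ± 0.08 at day 3 (adjusted p = 1.8e-06 and 2.3e-06), and -0.13 ± 0.08 and -0.17 ± 0.08 at day 1 (adjusted p = 0.49 and 0.28). Cenpa had the largest difference between days with Jmjd2a, -1.22 ± 0.12 (adjusted p = 3.1e-05), and -1.20 ± 0.12 with Jmjd2c. Cenpe read 8.32 and 8.24 with Jmjd2a and 8.35 and 8.22 with Jmjd2c, against 9.48 and 9.53 in control at day 3. On day 1 Cenpe read 7.36 and 7.25 with Jmjd2a and 7.35 and 7.25 with Jmjd2c, against 7.82 and 7.85 in control. It fell by 1.22 and 1.22 at day 3 and by 0.52 and 0.53 at day 1. Nuf2 read 8.25 and 8.12 with Jmjd2a and 8.21 and 8.12 with Jmjd2c, against 9.33 and 9.33 in control at day 3. Nuf2 on day 1 read 7.32 and 7.31 with Jmjd2a and 7.28 and 7.29 with Jmjd2c, against 7.77 and 7.87 in control. Its differences were -1.15 ± 0.09 and -1.17 ± 0.09 at day 3 and -0.51 ± 0.09 and -0.53 ± 0.09 at day 1. Spc25, of the same complex, fell by less at day 3, -0.42 ± 0.10 and -0.46 ± 0.10, and its calls there were lost without either day 3 array of the label compared (-0.42 each with Jmjd2a, -0.48 and -0.44 with Jmjd2c).

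The chromosomal passenger complex, which corrects faulty attachments, consists of the kinase Aurkb with Incenp, Birc5 (survivin) and Cdca8 (borealin). All 4 fell in each comparison with control. Aurkb read 9.25 and 9.19 with Jmjd2a and 9.18 and 9.14 with Jmjd2c, against 9.89 and 9.61 in control at day 3. At day 1 Aurkb read 8.53 and 8.47 with Jmjd2a and 8.51 and 8.47 with Jmjd2c, against 9.06 and 8.99 in control. Its differences were alike on both days, -0.54 ± 0.09 and -0.59 ± 0.09 at day 3 and -0.52 ± 0.09 and -0.53 ± 0.09 at day 1, and their change between days was -0.01 ± 0.13 and -0.06 ± 0.13 (adjusted p = 0.97 and 0.84). Birc5 read 10.50 and 10.39 with Jmjd2a and 10.49 and 10.36 with Jmjd2c, against 11.45 and 11.36 in control at day 3. Birc5 at day 1 read 9.75 and 9.74 with Jmjd2a and 9.68 and 9.70 with Jmjd2c, against 9.998 and 10.14 in control. Its differences were -0.96 ± 0.07 and -0.98 ± 0.07 at day 3 and -0.33 ± 0.07 and -0.38 ± 0.07 at day 1, and the change between days was past the test with both labels (-0.63 ± 0.10 and -0.60 ± 0.10). Cdca8 read 10.24 and 10.24 with Jmjd2a and 10.14 and 10.18 with Jmjd2c, against 11.22 and 10.85 in control at day 3. Day 1 arrays of Cdca8 read 9.44 and 9.49 with Jmjd2a and 9.46 and 9.48 with Jmjd2c, against 9.90 and 9.97 in control. It fell by 0.80 and 0.87 at day 3 and by 0.47 and 0.46 at day 1. Incenp fell by 0.70 and 0.62 at day 3.

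The spindle list holds the kinesins Kif11, Kif15, Kif2c, Kif4 and Kif22 and the spindle proteins Tpx2, Nusap1, Hmmr and Aspm. Of 9, 8 fell at day 3 with each label, and 6 with Jmjd2a and 7 with Jmjd2c fell at day 1. Aspm, a protein of the spindle poles, read 8.18 and 7.99 with Jmjd2a and 8.28 and 8.08 with Jmjd2c, against 9.60 and 9.56 in control at day 3. At day 1 Aspm read 7.16 and 7.17 with Jmjd2a and 6.96 and 7.12 with Jmjd2c, against 7.505 and 7.51 in control. Its day 3 differences of -1.49 ± 0.10 and -1.40 ± 0.10 were the largest of the list, and at day 1 they were -0.34 ± 0.10 (adjusted p = 0.076) and -0.47 ± 0.10 (adjusted p = 0.013). Hmmr, which binds hyaluronan and spindle microtubules, read 8.57 and 8.53 with Jmjd2a and 8.75 and 8.58 with Jmjd2c, against 9.97 and 9.96 in control at day 3. Hmmr on day 1 read 7.71 and 7.63 with Jmjd2a and 7.56 and 7.61 with Jmjd2c, against 8.10 and 8.18 in control. It fell by 1.41 and 1.30 at day 3 and by 0.48 and 0.56 at day 1. Nusap1, a protein of spindle microtubules near chromosomes, read 9.51 and 9.52 with Jmjd2a and 9.64 and 9.45 with Jmjd2c, against 10.68 and 10.54 in control at day 3. Nusap1 at day 1 read 8.78 and 8.75 with Jmjd2a and 8.73 and 8.71 with Jmjd2c, against 9.09 and 9.12 in control. It fell by 1.09 and 1.06 at day 3 and by 0.34 and 0.38 at day 1. Kif11, the motor Eg5 that pushes spindle poles apart, read 8.15 and 8.07 with Jmjd2a and 8.05 and 8.004 with Jmjd2c, against 9.17 and 8.87 in control at day 3. Kif11 on day 1 read 7.44 and 7.40 with Jmjd2a and 7.40 and 7.23 with Jmjd2c, against 7.79 and 7.83 in control. The differences were -0.91 ± 0.11 and -0.99 ± 0.11 at day 3 and -0.39 ± 0.11 and -0.50 ± 0.11 at day 1, that with Jmjd2a lying at the edge of the test (adjusted p = 0.0496). Another Kif11 probe set, of lower level, gave -1.32 with Jmjd2a and -1.38 with Jmjd2c at day 1, and -1.28 and -1.08 at day 3, so this probe set showed no smaller difference at day 1. Kif15, a motor that can stand in for Kif11, had a mean of 4.60, below the median probe set, and passed in no comparison with control (-0.36 ± 0.16 and -0.16 ± 0.16 at day 3, 0.07 ± 0.16 and 0.11 ± 0.16 at day 1, adjusted p from 0.14 to 0.9).

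The cytokinesis list holds the kinesins Kif20a, Kif20b and Kif23, the microtubule bundler Prc1, Ect2 and Racgap1, which act in forming the cleavage furrow, and the ring protein Anln. All 7 fell at day 3 with both labels, though Ect2 and Anln did not pass with Jmjd2a once its replicate 1 was left out (-0.50 and -0.63). At day 1, 3 with Jmjd2a and 6 with Jmjd2c fell. Kif20a read 8.57 and 8.46 with Jmjd2a and 8.68 and 8.58 with Jmjd2c, against 9.68 and 9.91 in control at day 3. At day 1 Kif20a read 7.58 and 7.51 with Jmjd2a and 7.55 and 7.62 with Jmjd2c, against 8.18 and 8.30 in control. It had the largest decrease of the whole set at day 1, -0.70 ± 0.10 and -0.66 ± 0.10, and fell by 1.28 and 1.17 at day 3. Kif23, the motor of the centralspindlin complex, read 8.42 and 8.43 with Jmjd2a and 8.58 and 8.34 with Jmjd2c, against 9.48 and 9.48 in control at day 3. Kif23 at day 1 read 7.98 and 7.77 with Jmjd2a and 7.89 and 7.90 with Jmjd2c, against 8.18 and 8.06 in control. It fell by 1.05 and 1.02 at day 3, and the day 1 values of -0.25 ± 0.10 and -0.22 ± 0.10 missed the test (adjusted p = 0.2 and 0.23). Its partner Racgap1 fell by 0.68 and 0.78 at day 3. Prc1 read 8.43 and 8.38 with Jmjd2a and 8.44 and 8.45 with Jmjd2c, against 9.26 and 9.04 in control at day 3. Day 1 values of Prc1 were 7.75 and 7.80 with Jmjd2a and 7.96 and 7.72 with Jmjd2c, against 8.24 and 8.23 in control. The differences were -0.74 ± 0.10 and -0.71 ± 0.10 at day 3 and -0.46 ± 0.10 and -0.39 ± 0.10 at day 1.

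The last list holds Top2a, the topoisomerase that untangles chromosomes, and Mki67, the Ki-67 protein that coats them and marks cycling cells. Mki67 read 10.59 and 10.53 with Jmjd2a and 10.61 and 10.49 with Jmjd2c, against 11.52 and 11.53 in control at day 3. At day 1 Mki67 read 10.06 and 10.03 with Jmjd2a and 9.97 and 9.93 with Jmjd2c, against 10.28 and 10.24 in control. Its level at day 3 was 51.3% of control with Jmjd2a and 51.1% with Jmjd2c, against 86.2% and 80.8% at day 1. The day 1 difference with Jmjd2a, -0.21 ± 0.06, was near the edge of the test (adjusted p = 0.047). Top2a read 11.14 and 11.05 with Jmjd2a and 11.20 and 11.12 with Jmjd2c, against 11.78 and 11.86 in control at day 3. On day 1 Top2a read 10.62 and 10.68 with Jmjd2a and 10.64 and 10.54 with Jmjd2c, against 10.91 and 10.89 in control. It fell by 0.73 and 0.65 at day 3 and by 0.25 and 0.31 at day 1. Both genes had larger differences at day 3 than at day 1 with each label, past the test of that change.

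**Figure D5:**
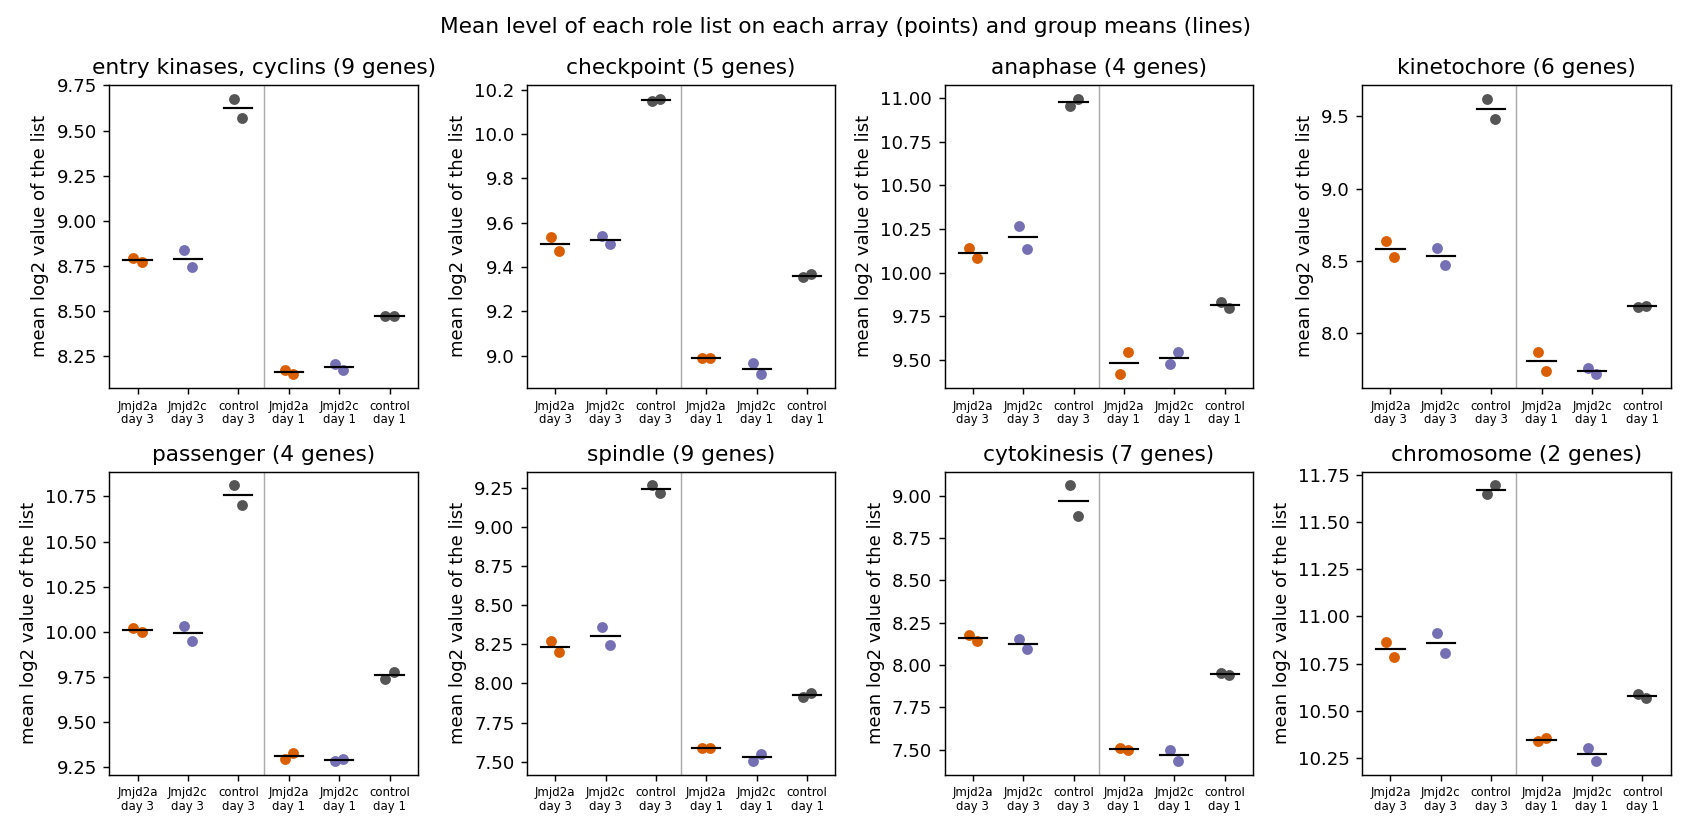
Mean log2 value of the genes of each role list on each array, with points for arrays and lines for group means. Each panel has its own y axis, with day 3 left of the grey line and day 1 right of it. In every panel the day 3 control is highest and the Jmjd2a and Jmjd2c arrays of day 1 are lowest: the kinetochore list lies between 8.52 and 8.64 on the Jmjd2a arrays of day 3, against 9.48 and 9.62 in control, and between 7.73 and 7.87 on the Jmjd2a arrays of day 1, against 8.18 and 8.18 in control.

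The other probe sets of these genes mostly ran the same way. Of the 46 genes, 31 had further probe sets, 63 in all. Their difference had the sign of the brightest one in 54 of 63 with Jmjd2a and 59 with Jmjd2c at day 3, and in 57 and 56 at day 1. At day 3, 29 of them fell with each label, and at day 1, 13 with Jmjd2a and 15 with Jmjd2c, with 0 higher in each comparison. Of all probe sets, 7.11% and 5.04% were lower at day 3 with Jmjd2a and Jmjd2c, and 3.25% and 5.69% at day 1.

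Further genes of mitosis outside the set, 124 measured of 127 listed, were tested in the same fit. At day 3, 34 fell and 16 rose with Jmjd2a, 27.4% and 12.9% of them, against 7.11% and 13.7% of all probe sets. With Jmjd2c 40 fell and 13 rose, 32.3% and 10.5%, against 5.04% and 9.28%. The shares that rose were near those of all probe sets. They were below the 25.5% and 19.4% of the brightest probe sets of genes above the median level, of which 11.5% and 10.5% were lower. At day 1, 41 fell and 0 rose with Jmjd2a, so that 33.1% were lower, against 3.25% of all probe sets. With Jmjd2c 51 fell and 1 rose, 41.1% and 0.806%, against 5.69% and 5.32%. Among the brightest probe sets of genes above the median level, 7.4% were lower with Jmjd2a and 11.7% with Jmjd2c. In control, 47 of the 124 genes were higher and 17 lower at day 3 than at day 1, 37.9% and 13.7%. Of all probe sets, 8.46% were higher and 15.4% lower. Among the brightest of genes above the median level, 14.5% were higher and 27.3% lower. Cdca3, which acts in the removal of the Cdk1 inhibitor Wee1, fell by 1.13 and 1.07 at day 3 and by 0.44 and 0.49 at day 1. Cks2, a subunit that docks on Cdk1, fell by 0.93 and 0.84 at day 3, and its day 1 values of -0.14 ± 0.07 and -0.22 ± 0.07 did not pass. Cep55, which acts in the final cut between daughter cells, fell by 0.67 and 0.65 at day 3 and by 0.44 and 0.58 at day 1. The condensin subunit Ncapd2 fell by 1.15 and 0.96 at day 3. The lists did not move alike. Of 19 genes of the anaphase-promoting complex and mitotic exit, 3 fell and 3 rose with each label at day 3, 15.8% each way. Their medians were -0.01 and -0.08. Among these, Cdc26 rose, at 9.95 and 9.94 with Jmjd2a and 9.91 and 9.87 with Jmjd2c, against 9.55 and 9.48 in control. Of 30 spindle and centrosome genes, 11 fell and 5 rose with Jmjd2a (36.7% and 16.7%), and 13 fell and 4 rose with Jmjd2c (43.3% and 13.3%). Some genes fell at day 1 alone among the comparisons with control. Trip13, which takes apart checkpoint complexes, differed by -0.08 ± 0.06 and -0.08 ± 0.06 at day 3 (adjusted p = 0.35 and 0.49), against -0.54 ± 0.06 and -0.62 ± 0.06 at day 1, and that change between days was past the test (0.46 ± 0.08 and 0.55 ± 0.08). Zwilch, of the kinetochore complex that recruits dynein, did likewise, with -0.69 ± 0.09 and -0.72 ± 0.09 at day 1.

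Regulators of these genes were tested as well. Of 23 genes of the MuvB, E2F, NF-Y and Foxm1 group, 0 fell and 5 rose with Jmjd2a at day 3, and 2 fell and 5 rose with Jmjd2c. The 21.7% that rose with each label stand against 13.7% and 9.28% of all probe sets, and against 25.5% and 19.4% of the brightest probe sets of genes above the median level. At day 1, 4 fell and 0 rose with Jmjd2a, and 5 fell and 1 rose with Jmjd2c. The 17.4% and 21.7% that fell stand against 3.25% and 5.69% of all probe sets. Of the brightest probe sets of genes above the median level, 7.4% and 11.7% fell. E2f1, an activator of S phase genes, differed by 0.74 ± 0.13 and 0.73 ± 0.13 at day 3 and by -0.37 ± 0.13 and -0.33 ± 0.13 at day 1, where it did not pass. E2f6 rose by 0.87 ± 0.10 and 0.78 ± 0.10 at day 3, and E2f3 by 0.62 ± 0.10 and 0.46 ± 0.10, while E2f3 fell at day 1 by 0.36 and 0.50. In control, all of E2f1, E2f3 and E2f6 were lower at day 3 than at day 1, by 0.88, 0.71 and 0.98. Mybl2, the B-Myb partner of MuvB, fell by 0.42 and 0.41 at day 1 and differed by -0.13 ± 0.09 and -0.24 ± 0.09 at day 3, short of the test. Foxm1, the forkhead factor of late cell cycle genes, passed in no comparison with control (-0.26 ± 0.12 and -0.15 ± 0.12 at day 3, -0.05 ± 0.12 and 0.04 ± 0.12 at day 1) and was 0.57 ± 0.12 higher at day 3 in control.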

How the data were processed

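RNA was hybridised to 12 Affymetrix mouse arrays, 2 in each of 6 groups. The values are log2 values per probe set, deposited by the authors, and no source used here states how they were normalized. Array control features, 64 of the 45101 probe sets, were not tested. The members, their role lists and the other lists were chosen with earlier results of these data known. A model of 6 group means over all 12 arrays was fitted with limma 3.58.1 under R 4.3.3, using moderated variances with a trend on intensity. Benjamini-Hochberg adjustment ran over 45037 probe sets, and an adjusted p under 0.05 was past the test. The fit had 6 residual degrees of freedom and a prior of 5.85. It was tested on simulated data drawn with the same spread in every group, so that test does not cover uneven spread between groups. Of the genes, the 3 of each role list (2 in the last) with the smallest p over the 6 groups were given on every array, as were Mki67, Cdk1, Kif11, Cdc25b, and, in addition, Plk4 and Pttg1, chosen after their values were seen. Replicate numbers were checked in 15 pairs of groups (correlations of deviations from -0.11 to 0.39, 1 over 0.1), and no pairing was used. Arrays carry no read depth, and the 2 arrays a group limit the precision. Motifs were searched in RefSeq promoters with Python 3.11.15. The alternatives were scaling, filter, prior, weights, thresholds, block, probe set rule, same-day fits, leaving out each array and, chosen after seeing the data, leaving out both day 1 arrays with high neutrophil markers.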

Additional observations from a re-analysis of the deposited data

Results flagged for a closer look

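The difference from control differed between the days, by the test of the day 3 difference minus the day 1 difference in limma, for 22 of the 46 genes with Jmjd2a and 23 with Jmjd2c. Of all probe sets, 18.3% and 17.5% were past this test, and 6.36% and 6.84% were past it and negative. Of the brightest probe sets of genes above the median level, 12.2% and 13.9% were past it and negative. Among the 46 genes, every value past the test was negative. The genes past it were lower against control at day 3 by more than at day 1, and for Cdc25b the sign of the difference turned. Of these calls, 17 with Jmjd2a and 14 with Jmjd2c were kept with each array left out in turn.

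Among the genes given on every array, the kinetochore and entry genes past this test had, with Jmjd2a, -1.22 for Cenpa, -1.17 for Ccnb2, -1.06 for Cdc25b, -0.69 for Cenpe, -0.64 for Nuf2, -0.62 for Nek2 and -0.54 for Ccna2. With Jmjd2c they had -1.20 for Cenpa, -1.06 for Ccnb2, -1.56 for Cdc25b, -0.69 for Cenpe, -0.63 for Nuf2, -0.47 for Nek2 and -0.56 for Ccna2.

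The anaphase genes Cdc20 and Ube2c gave -0.95 and -1.04 with Jmjd2a, and -0.80 and -1.03 with Jmjd2c. The checkpoint gene Bub1b was past this test with Jmjd2a at -0.72, and Birc5 of the passenger complex gave -0.63 with Jmjd2a and -0.60 with Jmjd2c.

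Of the spindle genes, Aspm gave -1.15, Hmmr -0.93, Nusap1 -0.75 and Kif11 -0.52 with Jmjd2a. With Jmjd2c, Aspm gave -0.93, Hmmr -0.74, Nusap1 -0.68 and Kif11 -0.50. Another Kif11 probe set, of lower level, showed no smaller difference at day 1. The cytokinesis kinesins Kif23 and Kif20a gave -0.81 and -0.58 with Jmjd2a, and -0.80 and -0.51 with Jmjd2c. Mki67 and Top2a gave -0.75 and -0.48 with Jmjd2a, and -0.66 and -0.34 with Jmjd2c. Some calls given in this section were not kept with each array left out. They were Kif11 and Kif20a with both labels, Bub1b and Cdc25b with Jmjd2a, and Nek2 and Top2a with Jmjd2c.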

How the results depend on the processing

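Apart from the fits without a single array, 116 counts of genes past the test were compared with the reported ones. They include the fit without both day 1 arrays, and the counts between the labels, which were 0 in every setting. Of the 116, 112 were within 1.5 times the reported count. The others were 19 without the intensity trend and 2 with a floor of 1.5-fold for Jmjd2a at day 1, 6 with that floor for Jmjd2c at day 1, and 15 with it for the change between days with Jmjd2c. With each array left out, the counts ranged over 37 to 44 (Jmjd2a) and 39 to 43 (Jmjd2c) at day 3, 6 to 41 and 13 to 42 at day 1, 42 to 44 between days in control, 28 to 42 between days with Jmjd2a and 30 to 44 with Jmjd2c, and 18 to 32 (Jmjd2a) and 14 to 31 (Jmjd2c) for the change in difference. Between the labels they were 0 throughout. With the replicate number as a block, a fit made although the numbers do not pair the arrays, 42 and 43 genes passed at day 3, 29 and 37 at day 1, 44, 41 and 44 between days in control, Jmjd2a and Jmjd2c, and 24 and 23 for the change in difference. Values of single genes under an alternative were tallied for 26 genes only, those given on every array except Plk4 and Pttg1. Most of these were chosen for the smallest p over the groups, so the tally does not speak for the rest of the set. Of 4648 such values, 4389 kept their call, 259 lost it and 0 changed sign, and the cause of the losses was not tested. With a lone array left in a group, its spread was taken from the other groups.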
